A study of Homo sapiens with 8 samples.

Results

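Human miR-28, miR-151 and miR-708 form a small family of microRNAs (miRNAs) whose hairpins derive from LINE-2 repeats, an ancient class of transposable element that no longer moves in the human genome. The members were taken by name from the table of read counts: hsa-miR-28-5p, hsa-miR-28-3p, hsa-miR-151a-5p, hsa-miR-151a-3p, hsa-miR-151b, hsa-miR-708-5p and hsa-miR-708-3p, where hsa stands for human and is left out from here on. All 7 named rows were present among the 2026 rows of the table, and 5 of them had enough reads to be tested among 570 tested miRNAs. The members not tested were both arms of miR-708.

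Small RNA was sequenced from HCT116, an established human colorectal cancer cell line. Cells of both groups had been grown as spheroids in serum-free medium with B27 and N2 supplements, basic fibroblast growth factor and epidermal growth factor in low-attachment flasks, stained for CD44v6, a form of the cell surface receptor CD44 made by alternative splicing, and sorted by flow cytometry into CD44v6+ and CD44v6- cells after removal of dead cells. The series looked for miRNAs of colorectal cancer stem cells, for which CD44v6 served as the surface marker. The labels name 8 sequencing entries that share 4 combined identities, and the table has 1 column for each identity, so n was 2 per group. Whether samples 1 and 2 of a group were separate cultures is not stated, and p-values therefore reflect the spread between samples that may differ in technical ways alone. All samples come from 1 cell line.

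A miRNA hairpin is cut into a short duplex, of which either strand can be loaded into an Argonaute protein and then guide the repression of messenger RNAs that match its seed, bases 2 to 8. The strand from the left side of the hairpin is named 5p and the strand from the right side 3p. When a hairpin lies in an intron, as those of miR-28, miR-151a and miR-708 do, it can be transcribed with its host gene. LPP, the host of miR-28, encodes a protein of focal adhesions. PTK2, the host of miR-151a, encodes focal adhesion kinase, and TENM4, the host of miR-708, encodes a teneurin of the cell surface. In colorectal cancer cells the arms of miR-28 have been reported to act differently from each other, miR-151a has been linked to cell migration in liver cancer, and miR-708 to the response to stress in the endoplasmic reticulum.

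Mature sequences were read from RefSeq on GRCh38.p14 and matched 3 of the 7 members. They are shown 5′ to 3′, with the seed in capitals, because the abundant miR-28-3p and the unread miR-708-3p are close relatives in sequence. The other arm, miR-708-5p, is shown because the reverse complement of its seed occurs in miR-28-3p.
miR-28-3p: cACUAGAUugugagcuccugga
miR-708-3p: cAACUAGAcugugagcuucuag
miR-708-5p: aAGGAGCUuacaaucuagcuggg
With miR-708-3p shifted by 1 base, it was identical to miR-28-3p at 17 of 21 aligned positions. The longest run that both hold is UGUGAGCU, in the strand as printed, which starts at base 9 of miR-28-3p and base 10 of miR-708-3p and occurs in 2 of 2312 mature sequences compared (0.0865%). The shift moves the seed, so the 3p arms do not share it. The reverse complement of the miR-708-5p seed, AGCUCCU, starts at base 13 of miR-28-3p and occurs in 3 of the 2312 sequences. Only the strand of each mature sequence was searched.

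The hairpins lie apart in the genome. In GENCODE release 29 on GRCh38, MIR28 is at chr3:188688781-188688866 on the plus strand, in an intron of LPP, and MIR708 is at chr11:79402022-79402109 on the minus strand, in an intron of TENM4. MIR151A is on the minus strand of chromosome 8 in an intron of PTK2. Each of these is on its host's strand. MIR151B is at chr14:100109419-100109514 on the minus strand, in an intron of EVL but on the opposite strand.

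Total reads were 7880631 and 4592278 for CD44v6- samples 1 and 2, and 919802 and 154481 for CD44v6+ samples 1 and 2. Levels are given as CPM, reads per 1000000 reads, after scaling with the trimmed mean of M-values (TMM). As each read stands for a whole miRNA, no division by length was made. The epithelial miR-200 family (5 miRNAs) summed to 31773 and 19256 CPM in CD44v6- samples 1 and 2 and to 16625 and 9031 CPM in CD44v6+ samples 1 and 2. The intestinal miR-192, miR-194 and miR-215 summed to 2065 and 1430 CPM in the CD44v6- samples and to 1188 and 5045 CPM in the CD44v6+ samples. Of 13 miRNAs that mark blood, muscle, stroma, neural cells or liver, none was at 0 in every sample, 3 were at 0 in some sample, and their sum was 6275 and 3134 CPM in the CD44v6- samples and 5462 and 9537 CPM in the CD44v6+ samples. CD44v6+ sample 2, the shallowest, was highest in 6 of the 13, among them the liver marker miR-122-5p at 609.7 CPM against 3.99 to 48.6 CPM elsewhere. Part of the 6 rests on few reads in that sample: 1 for miR-223-3p, 4 for miR-142-3p and 7 for miR-144-3p. The others had 54 (miR-451a), 117 (miR-122-5p) and 954 reads (miR-143-3p) in that sample. The list of muscle and stroma was mixed there: miR-143-3p was at 4972 CPM against 664.9 to 1084 CPM elsewhere, miR-145-5p was lowest at 57.3 CPM against 100.4 to 197.1 CPM elsewhere, and miR-1-3p and miR-133a-3p had 0 reads. Of the neural markers, miR-9-5p was lowest in that sample and miR-124-3p had 0 reads. The part of these markers in the results was not tested. In such bulk samples of 1 sorted cell line, fewer cells that hold a miRNA and less of it per cell cannot be told apart.

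miR-151a was the most abundant hairpin of the family, with both arms at similar levels when miR-151b was left out. miR-28 was read mainly from its 3p arm. miR-708 was almost unread. No member passed an adjusted p under 0.05 between CD44v6+ and CD44v6- cells. miR-28-3p was the one tested member with a positive log2 fold change, and miR-151a-3p had the largest negative one. The 4 arms of miR-28 and miR-151a together held 2.34% and 3.26% of all reads in the CD44v6- samples and 2.99% and 2.75% in the CD44v6+ samples.

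**Figure D1:**
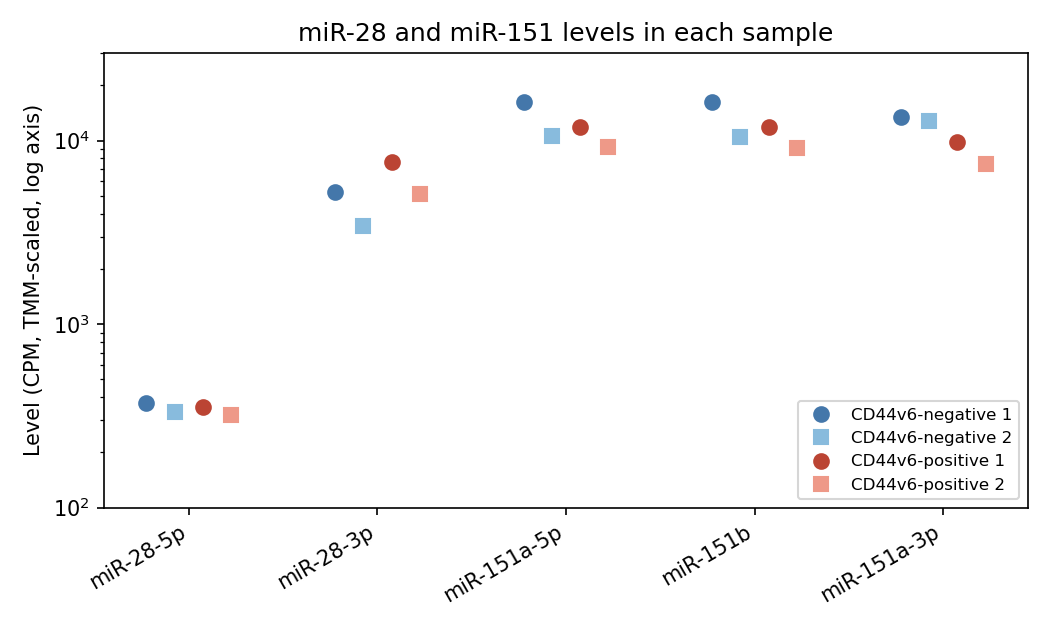
Level of each tested member in each sample, in TMM-scaled CPM on a log axis; each point is 1 sample. Both arms of miR-151a and miR-151b lie between 7447 and 16195 CPM, miR-28-3p between 3435 and 7667 CPM, and miR-28-5p between 317.9 and 372.7 CPM.

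The 3p arm of miR-28 was at 5255 and 3435 CPM in CD44v6- samples 1 and 2 and at 7667 and 5138 CPM in CD44v6+ samples 1 and 2. CD44v6+ sample 1 was the highest and CD44v6- sample 2 the lowest, and the groups overlapped. The log2 fold change, positive minus negative, was 0.56 ± 0.47 (SE), with a 95% interval from -0.57 to 1.69, and edgeR's quasi-likelihood test gave an adjusted p of 0.465. The value was 0.13 without CD44v6+ sample 1, 0.97 without CD44v6- sample 1 and 1.03 without CD44v6+ sample 2. It was positive in all 12 alternative settings tried.

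The 5p arm of miR-28 was at 372.7 and 331.6 CPM in the CD44v6- samples and at 353.9 and 317.9 CPM in the CD44v6+ samples, the tightest spread of any tested member, with the highest sample 1.17-fold above the lowest. These levels rest on 1948, 1829, 328 and 61 reads in that order. The log2 fold change was -0.07 ± 0.48 (95% interval -1.22 to 1.09, edgeR adjusted p = 0.935), and it was positive in 6 of the 12 alternatives, among them upper quartile and total count scaling and the fit without CD44v6+ sample 2 (0.23). The interval spans changes of more than 2-fold in either direction, so the close levels do not show that the groups were alike.

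Of the miR-151a arms, miR-151a-3p was at 13487 and 12753 CPM in the CD44v6- samples and at 9797 and 7447 CPM in the CD44v6+ samples. Both CD44v6+ samples lay below both CD44v6- samples. The log2 fold change was -0.61 ± 0.41 (95% interval -1.60 to 0.39, edgeR adjusted p = 0.368). It was -0.20 without CD44v6+ sample 2 and -0.94 without CD44v6+ sample 1, and it was negative in all 12 alternatives. This was the one tested member of 5 whose groups did not overlap, whereas 59.5% of all tested miRNAs did not overlap, 34.6% being lower and 24.9% higher in CD44v6+ cells. With total count scaling the groups of miR-151a-3p overlapped and those of miR-28-3p did not.

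The 5p arm, miR-151a-5p, was at 16193 and 10585 CPM in the CD44v6- samples and at 11810.4 and 9250.3 CPM in the CD44v6+ samples. CD44v6- sample 1 was the highest, and CD44v6- sample 2 lay between the CD44v6+ samples. The log2 fold change was -0.35 ± 0.44 (95% interval -1.42 to 0.72, edgeR adjusted p = 0.630), close to the median of -0.31 over all tested miRNAs. With upper quartile scaling it was -0.02, and it turned positive without CD44v6- sample 1 (0.06) and without CD44v6+ sample 2 (0.03).

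miR-151b had nearly the same counts as miR-151a-5p. It had 84645, 57989, 10924 and 1752 reads in CD44v6- samples 1 and 2 and CD44v6+ samples 1 and 2, against 84634, 58380, 10945 and 1775 reads of miR-151a-5p. In each sample the counts of miR-151b were 98.7% to 100.01% of those of miR-151a-5p. The sequence annotated as miR-151b is a shorter form of that of miR-151a-5p, and how reads that match both were assigned is not given in the sources used here, so these rows cannot be read as separate measurements. The log2 fold change of miR-151b, -0.35 ± 0.44 (edgeR adjusted p = 0.626), turned positive without the same samples. In the arm shares and hairpin totals below, miR-151b was left out.

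For miR-708, the table held 1 read in all: 1 read of miR-708-5p in CD44v6- sample 1. miR-708-3p was at 0 reads in every sample. A count of 0 allows up to 3 reads, which is 0.381 and 0.653 CPM in the CD44v6- samples and 3.26 and 19.4 CPM in the CD44v6+ samples before TMM scaling, and covers counting error only. The limit for CD44v6+ sample 2 is wide, so a level there of up to that size was not detectable at this depth. No fold change was formed for TENM4's miRNA, and the comparison of hosts was therefore made for LPP and PTK2 only.

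None of the 5 tested members passed in edgeR, DESeq2 or limma-voom. Over all miRNAs tested edgeR called 0 of 570 (0%), DESeq2 called 52 of 590 with an adjusted p (8.81%) and limma-voom called 4 of 570 (0.702%). At an unadjusted p under 0.05 edgeR had 30.5% of the 570, and none of the members was among them. With the replicate number as a block, edgeR called 228 of 570 (40%), again none of them a member. Of the members 1 had a positive and 4 a negative log2 fold change, with a median of -0.35 against -0.31 over all tested miRNAs. Both the 4 and the median count miR-151a-5p and miR-151b separately, though these rows cannot be read as separate measurements. The median is the value of miR-151a-5p itself, so its closeness to the overall median says little about the family. That overall median was 0.04 with upper quartile and 0.01 with total count scaling. Relative to the median of the same fit, miR-28-3p was higher by 0.87 with TMM, 0.86 with upper quartile and 0.89 with total count scaling. That excess differed under other settings, where the median was taken over other sets of miRNAs. The value minus the median was -0.01 with DESeq2 and 1.71 with no filter, each over 1510 miRNAs instead of 570. It was 0.34 without CD44v6- sample 2, over 460 miRNAs. In these fits the log2 fold change of miR-28-3p itself was 0.39, 0.16 and 0.45, in that order.

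**Figure D2:**
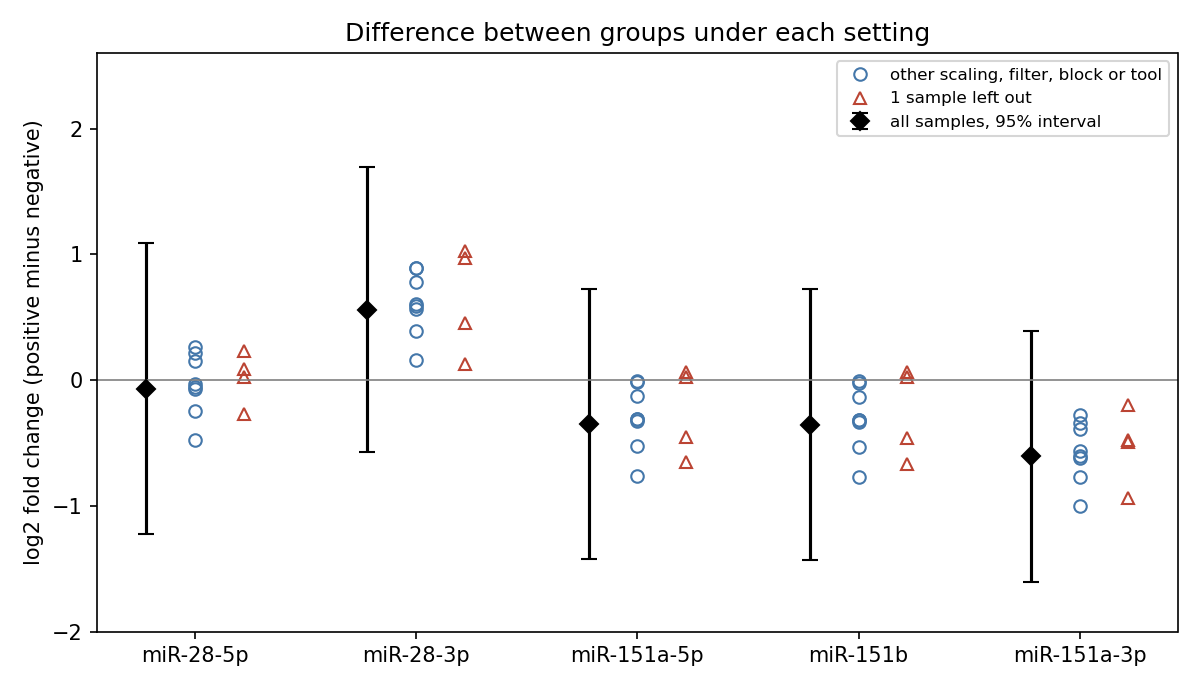
Log2 fold change (CD44v6+ minus CD44v6-) of each tested member: diamonds with 95% intervals are edgeR estimates from all samples, circles other scalings, filters, tools or the replicate block, and triangles fits with 1 sample left out. miR-28-3p stays above 0 and miR-151a-3p below 0 in all 12 alternatives, the other members lie on both sides, and every interval includes 0.

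The 2 arms of a hairpin are read in the same library, so their ratio needs no scaling between libraries. miR-28 gave 6.62% of its reads from the 5p arm in CD44v6- sample 1 (exact Clopper-Pearson 95% interval 6.34% to 6.91%) and 8.80% in CD44v6- sample 2 (8.42% to 9.20%). It gave 4.41% in CD44v6+ sample 1 (3.96% to 4.90%) and 5.83% in CD44v6+ sample 2 (4.49% to 7.42%). Both CD44v6+ samples lay below both CD44v6- samples, but the interval of CD44v6+ sample 2, from 1047 reads, includes the share of CD44v6- sample 1. Put as a ratio, there were 14.1 and 10.4 reads of the 3p arm for each read of the 5p arm in the CD44v6- samples and 21.7 and 16.2 in the CD44v6+ samples.

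The log2 ratio of 5p to 3p of miR-28 was -3.60 ± 0.31 in CD44v6- and -4.23 ± 0.30 in CD44v6+ samples (SD, n = 2), a difference of -0.63. A two-sided exact permutation test gave p = 0.33, the smallest that 2 samples against 2 allow. The difference was -0.41 without CD44v6- sample 2, -0.42 without CD44v6+ sample 1 and -0.84 without CD44v6+ sample 2. Among the 137 hairpins with both arms tested, 59.1% did not overlap between the groups in this ratio, 28.5% being lower and 30.7% higher in CD44v6+ cells, and 91 had a change farther from 0 than that of miR-28. The shift of miR-28 was thus of a size that most hairpins in these libraries exceeded. Many of the 137 had an arm with few reads in the CD44v6+ samples, so their ratios are less precise than that of miR-28.

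**Figure D3:**
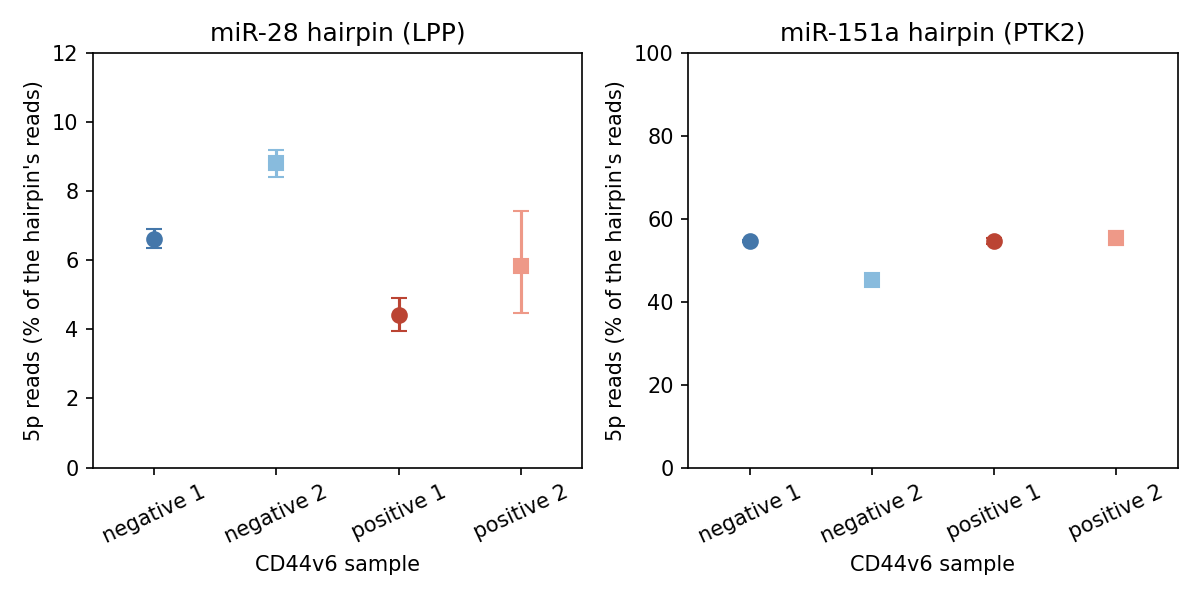
Share of each hairpin's reads that came from the 5p arm, in percent, for miR-28 (left, axis from 0 to 12%) and miR-151a (right, axis from 0 to 100%); each point is 1 sample with its exact 95% interval for counting error. For miR-28 the CD44v6+ samples lie at 4.41% and 5.83% and the CD44v6- samples at 6.62% and 8.80%. For miR-151a, CD44v6- sample 2 lies apart at 45.4%. Reads of miR-151b were left out.

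With miR-151b left out, the arms of the miR-151a hairpin were read almost evenly. If the reads of miR-151b were further reads of the 5p arm, its share would be higher than given here. The 5p arm gave 54.6% of its reads in CD44v6- sample 1, 45.4% in CD44v6- sample 2, 54.7% in CD44v6+ sample 1 and 55.4% in CD44v6+ sample 2. CD44v6- sample 2 lay apart, and the other 3 samples lay within 1 percentage point of each other. The log2 ratio of 5p to 3p differed by 0.29 between the groups (two-sided exact permutation p = 0.33), by 0.03 without CD44v6- sample 2 and by 0.27 without CD44v6+ sample 2, so the difference rested on CD44v6- sample 2. Of the 137 hairpins, 121 had a change farther from 0, with the same limit that many had an arm with few reads. With miR-151b added to the 5p arm, the difference between the groups was also 0.29.

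Summed over both arms, the miR-28 hairpin was at 5628 and 3767 CPM in the CD44v6- samples and at 8020.7 and 5456 CPM in the CD44v6+ samples. These overlapped, and the difference of mean log2 levels was 0.52 (two-sided exact permutation p = 0.667). It was 0.23 without CD44v6- sample 2, 0.24 without CD44v6+ sample 1, 0.81 without CD44v6- sample 1 and 0.80 without CD44v6+ sample 2. The miR-151a hairpin was at 29679.8 and 23337 CPM in the CD44v6- samples and at 21607 and 16697 CPM in the CD44v6+ samples. Here the groups did not overlap, with a difference of -0.47 (two-sided exact permutation p = 0.33). It was -0.28 without CD44v6+ sample 2 and -0.30 without CD44v6- sample 1. The same difference was -0.14 with total count and -0.15 with upper quartile scaling, under both of which the groups overlapped. For miR-28 the difference was 0.85 and 0.84 under these scalings, and the groups did not overlap.

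The ratio of the hairpins to each other does not depend on the scaling. With miR-151b left out, reads of miR-28 amounted to 19.0% and 16.1% of those of miR-151a in the CD44v6- samples. They amounted to 37.1% and 32.7% in the CD44v6+ samples. Both CD44v6+ samples were above both CD44v6- samples. On the log2 scale the ratio was -2.52 ± 0.16 in CD44v6- and -1.52 ± 0.13 in CD44v6+ samples (SD, n = 2), a difference of 0.99 or 1.99-fold (two-sided exact permutation p = 0.33, the smallest possible with 2 against 2; the one pair of hosts that could be compared). The difference ranged from 0.88 to 1.11 when 1 sample was left out, and it was 1.09 without CD44v6+ sample 2. That sample was highest in 6 of the 13 markers of other tissues, some of them from few reads. With miR-151b added to the 5p arm of miR-151a the difference was 0.95, and the percentages above would be lower.

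By arm, the difference was larger between the 3p strands than between the 5p strands. The log2 ratio of miR-28-3p to miR-151a-3p was -1.63 ± 0.38 in CD44v6- and -0.44 ± 0.13 in CD44v6+ samples, a difference of 1.18 with no overlap. That of miR-28-5p to miR-151a-5p differed by 0.26, and the groups overlapped. The background was formed from pairs of single tested miRNAs with 0.5 reads added, not from hairpin totals. Over all 162165 pairs, 58.5% had a ratio that did not overlap between the groups, and 68.0% had a larger difference than the hairpins of miR-28 and miR-151a. By that measure the ratio was not unusual. Many of those miRNAs had few reads in the CD44v6+ samples, so their ratios are less precise, and pairs of similar depth were not compared.

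**Figure D4:**
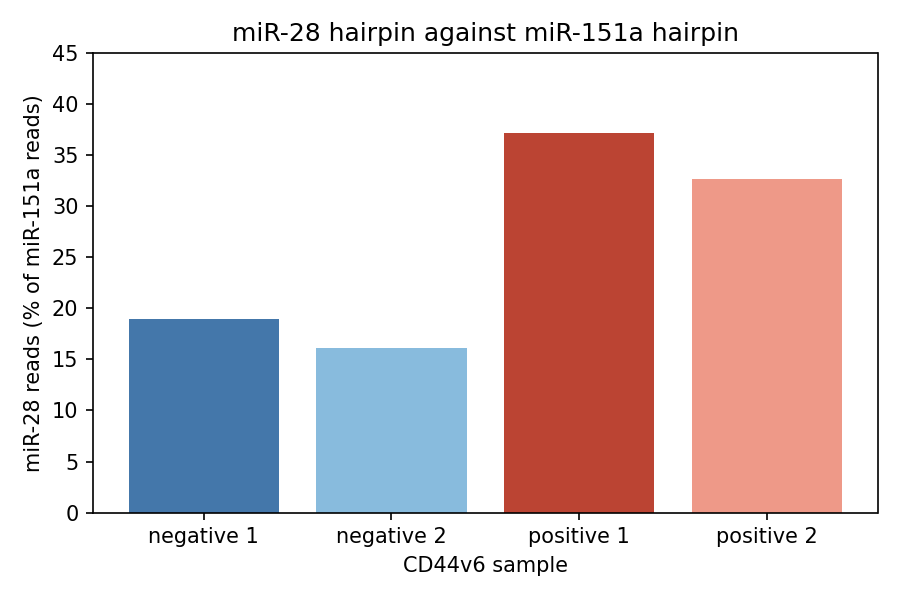
Reads of the miR-28 hairpin (both arms, host LPP) as a percentage of reads of the miR-151a hairpin (both arms, host PTK2); each bar is 1 sample, and the axis starts at 0. The CD44v6+ samples stand at 37.1% and 32.7% and the CD44v6- samples at 19.0% and 16.1%. The row of miR-151b, which cannot be read as a separate measurement from miR-151a-5p, was left out.

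The tested miRNAs outside the family whose levels ran most like those of its leading arms were found by the Euclidean distance between log2 CPM profiles over the 4 samples, each centred on its own mean. Closest to miR-28-3p were miR-146b-3p at a distance of 0.134, miR-361-3p at 0.229 and miR-1306-5p at 0.311. The median over all tested miRNAs outside the family was 2.04. In CD44v6+ sample 2 these miRNAs had 4, 19 and 5 reads in that order, so their distances and ranks are imprecise. Closest to miR-151a-5p were miR-361-5p at 0.161, miR-26a-5p at 0.166 and miR-589-5p at 0.199, against a median of 1.84. The arms of the miR-361 hairpin thus fell 1 to each list, miR-361-3p beside miR-28-3p and miR-361-5p beside miR-151a-5p. None of these 6 miRNAs passed in edgeR, with adjusted p from 0.406 to 0.853, where 0 of all 570 passed. They were picked for profiles like those of members that did not pass, so this adds no separate result.

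Other human miRNAs have also been reported to derive from LINE-2 repeats, and 11 rows of the table belonged to a list of these taken from general knowledge, which was not checked against a repeat annotation. Of the 11, 6 were tested and 0 passed in edgeR, 2 having positive and 4 negative log2 fold changes. Their median was -0.92 against -0.31 over all tested miRNAs. The groups did not overlap for 3 of the 6, 1 higher and 2 lower in CD44v6+ cells, a share no greater than the 59.5% of all tested miRNAs (24.9% higher and 34.6% lower).

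Those 3 came from the hairpins of miR-330 and miR-326, whose sequences are shown with the seed in capitals because miR-330-5p and miR-326 share it.
miR-330-5p: uCUCUGGGccugugucuuaggc
miR-326: cCUCUGGGcccuuccuccag
miR-330-3p: gCAAAGCAcacggccugcagaga
miR-326 was at 90.3 and 135.8 CPM in the CD44v6- samples and at 47.5 and 41.7 CPM in the CD44v6+ samples (log2 fold change -1.33 ± 0.58, edgeR adjusted p = 0.179). miR-330-5p was at 115.9 and 281.2 CPM in the CD44v6- samples and at 94.96 and 99.02 CPM in the CD44v6+ samples (-1.04 ± 0.63, edgeR adjusted p = 0.311, and -0.80 without CD44v6+ sample 2). With TMM both lay lower in each CD44v6+ sample than in either CD44v6- sample. With upper quartile or total count scaling this held for miR-326, while the groups of miR-330-5p overlapped. Without CD44v6- sample 2 the log2 fold change of miR-330-5p was -0.09, so its size rested on that sample, and the log2 fold change of miR-326 was -0.84 without the same sample and -1.01 without CD44v6+ sample 2.

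The opposite arm of the same hairpin, miR-330-3p, was at 72.3 and 80.5 CPM in the CD44v6- samples and at 181.3 and 135.5 CPM in the CD44v6+ samples (1.06 ± 0.53, edgeR adjusted p = 0.226), and the log2 fold change was 0.70 without CD44v6+ sample 1 and 1.48 without CD44v6+ sample 2. There were 1.60 and 3.49 reads of miR-330-5p for each read of miR-330-3p in the CD44v6- samples and 0.524 and 0.731 in the CD44v6+ samples, so the more abundant arm was 5p in the CD44v6- and 3p in the CD44v6+ samples. CD44v6+ sample 2 had 19 reads of the 5p and 26 reads of the 3p arm, so its ratio is imprecise. Of the 137 hairpins with both arms tested, 59.1% did not overlap in this ratio, 28.5% being lower and 30.7% higher in CD44v6+ cells.

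The groups overlapped for the remaining tested miRNAs of the list. miR-345-5p was at 459.4 and 1460 CPM in the CD44v6- samples and at 410.0 and 552.4 CPM in the CD44v6+ samples (-0.999 ± 0.66), and the log2 fold change was 0.24 without CD44v6- sample 2, -1.53 without CD44v6- sample 1 and -0.95 without CD44v6+ sample 2. miR-95-3p was at 95.1 and 31.7 CPM and at 54.0 and 10.4 CPM, the last from 2 reads (-0.83 ± 0.89), and it was 0.23 without CD44v6- sample 1, -1.28 without CD44v6- sample 2, -2.71 without CD44v6+ sample 1 and -0.05 without CD44v6+ sample 2. miR-616-5p was at 8.23 and 12.1 CPM and at 15.1 and 5.21 CPM, the last from 1 read (0.19 ± 0.77), and it was -1.09 without CD44v6+ sample 1, 0.64 without CD44v6- sample 2, 0.81 without CD44v6+ sample 2 and -0.0037 without CD44v6- sample 1. Of the 5 rows not tested, miR-493-3p had 0 reads in every sample and miR-493-5p had 1 read in all.

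**Figure D5:**
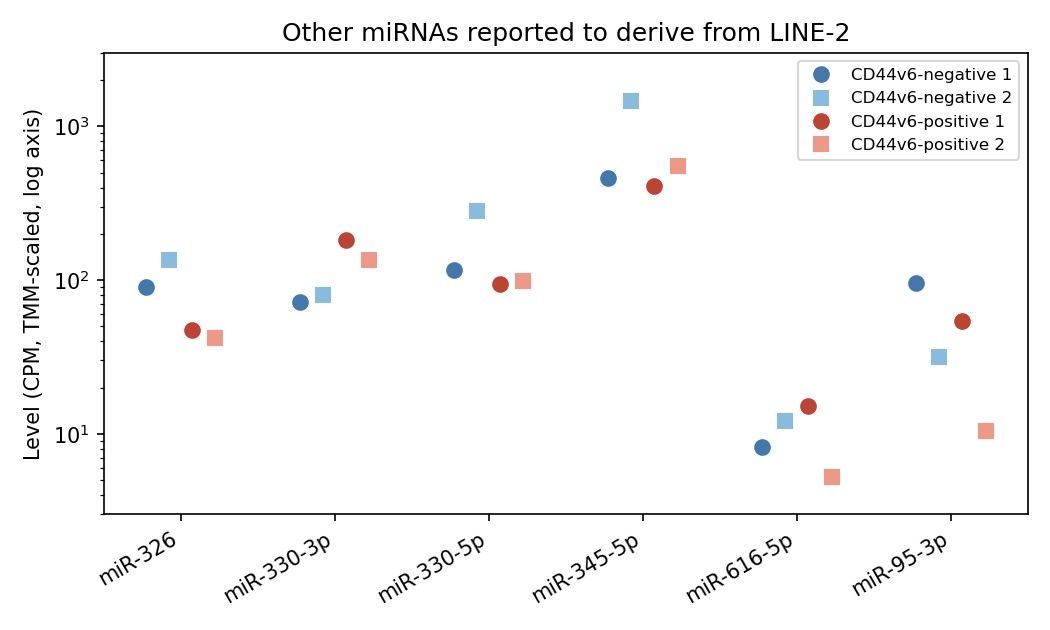
Level of the 6 tested miRNAs of the second LINE-2 list in each sample, in TMM-scaled CPM on a log axis; each point is 1 sample. miR-326 and miR-330-5p are lower and miR-330-3p higher in both CD44v6+ samples, while the other miRNAs overlap between the groups; with upper quartile or total count scaling miR-330-5p overlaps too.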

How the data were processed

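Small RNA reads of 4 samples, 2 CD44v6+ and 2 CD44v6-, were analysed from the raw counts per mature miRNA that the authors deposited; a normalized version was not used here. The submitters' processing notes list Bowtie 0.12.9, cutadapt 1.10, CASAVA 1.8.2 and DESeq2, with GRCh38; for the miRNA annotation and for reads that match several miRNAs the method is not given in the sources used here. Counts were tested with edgeR 4.0.16 in R 4.3.3 with TMM scaling. The filter was filterByExpr with minima of 10 reads and of 15 in total. A quasi-likelihood test was used, with Benjamini-Hochberg adjustment over 570 miRNAs and a threshold of 0.05. The same steps were run on simulated counts, whose outcome is not given, so no result here rests on that run. The SE is the absolute log2 fold change over the square root of F. Alternatives used DESeq2 1.42.0, limma 3.58.1 voom, other scalings and filters, a replicate block and each sample left out. Ratios and hairpin totals were compared by exact permutation. Named were all members, the second LINE-2 list and the 3 nearest profiles to each host's leading arm. Members and lists were chosen with earlier results of these data known. Total depth ran from 154481 to 7880631 reads, so the CD44v6+ values are the less precise.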

Additional observations from a re-analysis of the deposited data

How the results depend on the processing

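No member was called under any of the 12 alternatives, with member adjusted p from 0.0890 to 0.998. The log2 fold change of miR-28-5p reversed to 0.26 with upper quartile scaling, 0.22 with total count scaling and 0.15 with the 10 CPM filter; when 1 sample was left out it ranged from -0.27 to 0.23, that of miR-151a-5p from -0.65 to 0.063 and that of miR-151b from -0.67 to 0.063. Of the second LINE-2 list, miR-616-5p reversed to -0.11 with no filter, and the range with 1 sample left out was -1.09 to 0.81 for miR-616-5p, -1.53 to 0.24 for miR-345-5p and -2.71 to 0.23 for miR-95-3p. The number of tested members whose groups did not overlap was 1, but 3 with upper quartile scaling, 2 with no filter and 3 with the 10 CPM filter. It was 3 to 4 with 1 sample left out, where a group with 1 sample overlaps less easily. The share over all miRNAs, 59.5%, was formed for the TMM fit of 570 miRNAs only. The counts under other settings therefore cannot be called many or few. Each count takes miR-151a-5p and miR-151b separately. The arm ratios, hairpin totals and the ratio between hairpins kept their direction under every alternative run.

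Samples share replicate numbers 1 and 2, but the labels do not say what a number marks. Deviations of same-numbered samples correlated at 0.37 across tested miRNAs. With the replicate block 228 miRNAs were called against 0 without it, no member was among them, and miR-151a-3p had an adjusted p of 0.0890 (edgeR). With no filter 77, with total count scaling 48, and with 1 sample left out 26 to 55 miRNAs were called over all.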

Other observations

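Nearly equal counts of distinct rows were rare among rows with at least 50 reads in every sample, and the other rows were not searched. Of 121 rows with at least 50 reads in every sample, which form 7260 pairs, miR-151a-5p with miR-151b was the 1 pair whose counts agreed within 2% in all 4 samples. The search was made after the counts of this pair had been seen.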
